A study of Mus musculus with 8 samples.

Results

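The Toll-like receptors are a family of membrane receptors with which cells of the immune system detect microbial products. They were examined here in cultured mouse megakaryocytes, the platelet-forming cells of the marrow. The members were the 10 rows of the gene count table whose mouse Ensembl identifier maps to Tlr1, Tlr2, Tlr3, Tlr4, Tlr5, Tlr6, Tlr7, Tlr8, Tlr9 or Tlr13, out of 27679 genes listed. Tlr11 and Tlr12, which are not among the 10, were read beside them. In GENCODE M21, Tlr1 and Tlr6 lie on chromosome 5, Tlr7, Tlr8 and Tlr13 on X, Tlr2 on 3, Tlr3 on 8, Tlr4 on 4, Tlr5 on 1 and Tlr9 on 9. The study compared hydrogel culture, with 4 libraries, with liquid culture, also with 4 libraries. In both, lineage-negative cells of wild-type C57BL/6 bone marrow, obtained by magnetic depletion, grew for 3 days, after which a BSA gradient was used to enrich large mature megakaryocytes. The hydrogel, methylcellulose at 2%, is a soft milieu that surrounds the cells (Young modulus, 30 to 60 Pa), and the series title puts the question as mechanical confinement and the site of platelet release. The cells were wild type, with no transgene and no other treatment named. Age and sex of the mice are not used here.

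Each receptor has a leucine-rich ectodomain that binds the ligand and a cytosolic TIR domain that recruits adaptor proteins. TLR1, TLR2, TLR4, TLR5 and TLR6 work mainly at the cell surface and read lipoproteins, lipopolysaccharide and flagellin, while TLR3, TLR7, TLR8, TLR9 and TLR13 work in endosomes and read nucleic acids. All signal through MyD88 except TLR3, which uses TRIF, and TLR4 uses both. The pathway ends in NF-kB and interferon regulatory factors. Macrophages and dendritic cells are the textbook sites of high expression, and megakaryocytes and platelets are also known to carry some of the family, TLR2 and TLR4 among them.

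All 9 members that could be tested were higher in hydrogel, and 0 were lower, also at an unadjusted p under 0.05 and by DESeq2 and limma-voom. A gene was called when edgeR's quasi-likelihood test, run on all 13845 genes with enough reads, gave a Benjamini-Hochberg adjusted p under 0.05, a rule by which 15.1% of tested genes were higher and 14.1% lower. The log2 changes ran from 0.81 for Tlr4 to 2.63 for Tlr13, with a median of 1.72, against −0.01 over all tested genes. In 7 of the 9 every hydrogel library lay above every liquid library, as did 14.6% of tested genes. The exceptions were Tlr3 and Tlr7. Tlr5 had too few reads for the test.

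Libraries held 27012172 to 37059314 counts in hydrogel and 28825468 to 49281611 in liquid. Levels are given as CPM, a gene's counts relative to its library's TMM-scaled total. Of 14 megakaryocyte markers, all were detected, with summed levels of 26130 to 38170 CPM in hydrogel and 32170 to 52580 CPM in liquid, and 10 fell. Of 21 macrophage markers, 15 rose (17 by limma-voom) and 0 fell, and their summed level was 4093 to 8747 CPM in hydrogel against 1119 to 2457 CPM in liquid. None fell by DESeq2 or limma-voom or at an unadjusted p under 0.05 in edgeR. Among the macrophage markers, Cd163 and Vsig4 stayed under 1 CPM in every library, and C1qa, C1qb, C1qc and Cx3cr1 were tested but not called by edgeR. Adgre1, Mrc1, Mertk and Marco were among the 15 that rose. Hydrogel 1 and liquid 2 stood between the other libraries, with 4093 and 2457 CPM of macrophage markers. The same order appeared in the receptors, for hydrogel 1 was the lowest hydrogel library for 10 of 10 members (33.1% of tested genes) and liquid 2 the highest liquid library for 7 (34.2%). In bulk RNA, more cells of a type and more RNA per cell cannot be told apart, and the part of macrophage transcripts in the results below was not tested. The series design calls the replicates independent cultures and names no mice.

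Promoters of 8 of the 10 members are held in the RefSeq table used here (build GRCm38.p6), and 4 windows are shown because they stand upstream of the receptor with the largest rise (Tlr13), of 2 further endosomal members (Tlr8 and Tlr9) and of Tlr12, which went the other way. Each is the 250 bases before the gene's start, 5′ to 3′ on the gene's strand. The windows are chrX:106143025-106143274 (+ strand), chr9:106222348-106222597 (+ strand), chrX:167264330-167264579 (- strand) and chr4:128618620-128618869 (- strand), in coordinates of GRCm38.p6, not of the GRCm39 build used for counting. Capitals mark matches, on either strand, to GAGGAAG (PU.1 and other ETS factors), the IRF motif (a tandem repeat with a short gap), TGANTCA (AP-1), TTNNGNAA (C/EBP) or the NF-kB motif.
Tlr13: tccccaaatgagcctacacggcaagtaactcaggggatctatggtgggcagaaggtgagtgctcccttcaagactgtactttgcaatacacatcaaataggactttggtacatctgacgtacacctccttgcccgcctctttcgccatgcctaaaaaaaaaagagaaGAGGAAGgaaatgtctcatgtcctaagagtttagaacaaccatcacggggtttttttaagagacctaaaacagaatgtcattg
Tlr9: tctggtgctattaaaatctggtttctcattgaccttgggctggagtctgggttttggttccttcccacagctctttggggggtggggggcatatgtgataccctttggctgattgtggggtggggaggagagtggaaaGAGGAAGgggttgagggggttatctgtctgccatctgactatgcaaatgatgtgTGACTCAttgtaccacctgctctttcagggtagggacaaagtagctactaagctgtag
Tlr8: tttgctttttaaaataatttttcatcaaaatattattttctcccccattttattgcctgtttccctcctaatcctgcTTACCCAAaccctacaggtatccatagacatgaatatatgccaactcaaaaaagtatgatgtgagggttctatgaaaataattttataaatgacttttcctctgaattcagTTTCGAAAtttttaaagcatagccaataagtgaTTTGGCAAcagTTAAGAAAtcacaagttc
Tlr12: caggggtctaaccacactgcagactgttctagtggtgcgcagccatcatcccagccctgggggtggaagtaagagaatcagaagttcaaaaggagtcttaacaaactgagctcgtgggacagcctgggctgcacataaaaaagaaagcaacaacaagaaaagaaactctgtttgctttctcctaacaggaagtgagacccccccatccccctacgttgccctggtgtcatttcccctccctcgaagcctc

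The Tlr13 window holds GAGGAAG once, 83 to 77 bases before the start. That of Tlr9 holds it 112 to 106 bases before the start, and a match to TGANTCA besides. In the Tlr8 window TTNNGNAA matches at 4 places, none overlapping another motif. None of the 5 letter patterns occurs in the Tlr12 window. The window of Tlr11, also not a member and not shown, matches GAGGAAG, the IRF motif and TTNNGNAA. Among 32851 promoter windows of the same length, GAGGAAG occurs in 10.6%, the IRF motif in 2.98%, TGANTCA in 6.75%, TTNNGNAA in 36.8% and the NF-kB motif in 0.356%. Of the other members in that table, Tlr1 matches GAGGAAG, Tlr2 TTNNGNAA, Tlr3 TTNNGNAA and the NF-kB motif, Tlr6 TTNNGNAA and, at 2 overlapping places, the IRF motif, and Tlr5 none. Tlr1 and Tlr6 each have a second window in the table, and in both of these none of the 5 motifs occurs. These matches describe letters only.

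**Figure D1:**
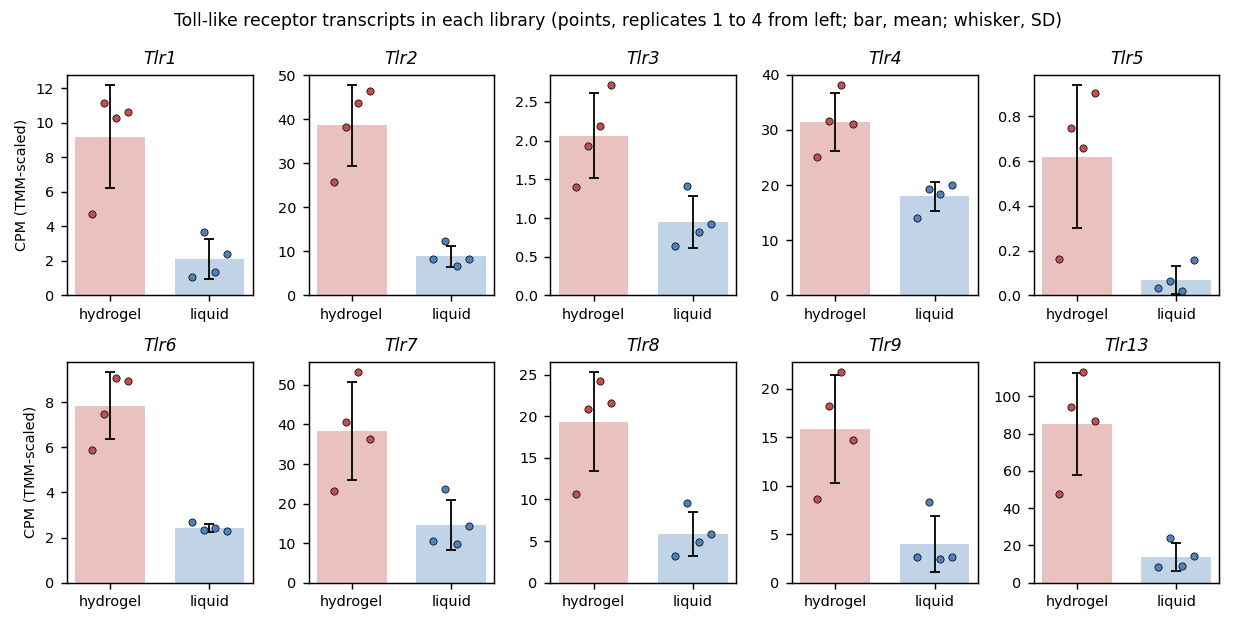
TMM-scaled CPM of the 10 Toll-like receptor genes, 1 panel a gene with its own axis from 0; points are the 4 hydrogel (left) and 4 liquid (right) libraries, bars their means and whiskers the SD. Hydrogel 1 is the lowest hydrogel point in all 10 panels, and the groups overlap for Tlr3 and Tlr7.

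Among the cell-surface receptors, Tlr2 (ENSMUSG00000027995), which reads bacterial lipoproteins as a heterodimer with TLR1 or TLR6, had the highest level in hydrogel. It had 25.9, 38.4, 43.8 and 46.5 CPM in hydrogel 1 to 4, against 8.31, 12.3, 6.71 and 8.27 CPM in liquid 1 to 4. All hydrogel libraries lay above the liquid ones, the lowest of them by more than the spread within liquid. The log2 change was 2.12 ± 0.22 (SE, n = 4 each), a 4.36-fold rise with an adjusted p of 0.000283 in edgeR's test. Its partner Tlr1 (ENSMUSG00000044827) had 4.74, 11.1, 10.3 and 10.6 CPM in hydrogel 1 to 4, against 1.09, 3.65, 1.34 and 2.41 CPM in liquid 1 to 4. Hydrogel 1 and liquid 2 came within about 1 CPM of each other without crossing. The rise of Tlr1 was 2.12 ± 0.39 on the log2 scale (adjusted p = 0.00327, edgeR).

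The other partner, Tlr6 (ENSMUSG00000051498), had 5.89, 7.47, 9.05 and 8.93 CPM in hydrogel 1 to 4, against 2.696, 2.33, 2.42 and 2.27 CPM in liquid 1 to 4. The liquid libraries were tight, liquid 2 included, and every hydrogel library was higher. Its log2 change of 1.69 ± 0.17 had the smallest adjusted p of the family (0.000245, edgeR). Tlr1 and Tlr6 share part of their sequence: 13.6% of the 50-base stretches in annotated Tlr1 transcripts also occur in Tlr6 transcripts, and 12.3% of those of Tlr6 in Tlr1. How reads from the shared stretches were counted is not given in the sources used here, so the split between Tlr1 and Tlr6 is uncertain to that extent. No other pair of members shares such a stretch.

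Tlr4 (ENSMUSG00000039005), the lipopolysaccharide receptor, had 25.1, 31.6, 38.1 and 31.0 CPM in hydrogel 1 to 4, against 14.1, 19.3, 18.4 and 20.01 CPM in liquid 1 to 4. The groups did not overlap, with hydrogel 1 nearest the liquid libraries. The log2 change of 0.81 ± 0.14, 1.75-fold, was the smallest of the called members (adjusted p = 0.0027, edgeR). Tlr5 (ENSMUSG00000079164), the flagellin receptor, was near the detection limit, with 6, 24, 18 and 28 reads in hydrogel 1 to 4 and 1, 2, 1 and 6 reads in liquid 1 to 4. In CPM its hydrogel libraries lay just above the liquid ones, the lowest at 0.164 and the highest liquid library at 0.159. Fitted without the filter on low counts, its log2 change was 3.08 ± 0.68 (adjusted p = 0.00301, edgeR), a size that 10 liquid reads determine poorly.

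Among the endosomal receptors, Tlr13 (ENSMUSG00000033777), which in mice reads bacterial ribosomal RNA, had the largest log2 change of the 9 tested members; differences between members' changes were not tested. It had 47.8, 94.0, 112.8 and 86.8 CPM in hydrogel 1 to 4, against 8.22, 24.1, 8.76 and 14.1 CPM in liquid 1 to 4. Even hydrogel 1 was well above liquid 2, the highest liquid library. The log2 change was 2.63 ± 0.37, with an adjusted p of 0.000911 in edgeR's test, and the mean was 85.3 ± 27.3 CPM in hydrogel, against 13.8 ± 7.38 CPM in liquid (SD, n = 4 each).

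Tlr7 (ENSMUSG00000044583), a receptor for single-stranded RNA, had 23.3, 40.6, 53.2 and 36.4 CPM in hydrogel 1 to 4, against 10.5, 23.6, 9.73 and 14.4 CPM in liquid 1 to 4. Liquid 2 just exceeded hydrogel 1, so the groups overlapped, and the log2 change was 1.40 ± 0.31 (adjusted p = 0.008, edgeR). Its neighbour on chromosome X is Tlr8 (ENSMUSG00000040522). Tlr8 had 10.7, 20.9, 24.2 and 21.6 CPM in hydrogel 1 to 4, against 3.24, 9.53, 4.91 and 5.82 CPM in liquid 1 to 4. Its groups were apart by the small gap between hydrogel 1 and liquid 2. The rise was 1.72 ± 0.33 on the log2 scale (adjusted p = 0.00399, edgeR).

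Tlr9 (ENSMUSG00000045322), the receptor for unmethylated CpG DNA, had 8.63, 18.3, 21.7 and 14.7 CPM in hydrogel 1 to 4, against 2.66, 8.32, 2.44 and 2.64 CPM in liquid 1 to 4. Liquid 2 stood far above the other liquid libraries and close under hydrogel 1. The log2 change of 1.99 ± 0.43 (adjusted p = 0.0071, edgeR) became 2.61 when liquid 2 was left out, over 1.5 times as large a fold. Tlr3 (ENSMUSG00000031639), the receptor for double-stranded RNA, was the lowest endosomal member, with 1.40, 1.94, 2.19 and 2.72 CPM in hydrogel 1 to 4, against 0.642, 1.41, 0.814 and 0.925 CPM in liquid 1 to 4. Liquid 2 just exceeded hydrogel 1. Its log2 change of 1.12 ± 0.30 passed with an adjusted p of 0.0196 in edgeR's test, and the call was lost without hydrogel 3, hydrogel 4, liquid 1, liquid 3 or liquid 4 (adjusted p of 0.0515 to 0.0622). An annotated antisense gene overlaps 381 exonic bases of Tlr3, and the strand setting of the counting is not given in the sources used here.

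Tlr12 (ENSMUSG00000062545), which in mice recognises profilin of protozoa together with TLR11 and is not one of the 10, went the other way. It had 7.51, 3.50, 4.74 and 4.24 CPM in hydrogel 1 to 4, against 13.1, 6.87, 15.7 and 10.3 CPM in liquid 1 to 4. Here hydrogel 1 was the highest hydrogel library and liquid 2 the lowest liquid library, so that they crossed. Tlr12 fell by 1.20 ± 0.29 on the log2 scale (adjusted p = 0.012, edgeR), and the call held in all 17 alternatives. Tlr11 had 5 reads over the hydrogel libraries and 23 over the liquid ones and was not tested.

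**Figure D2:**
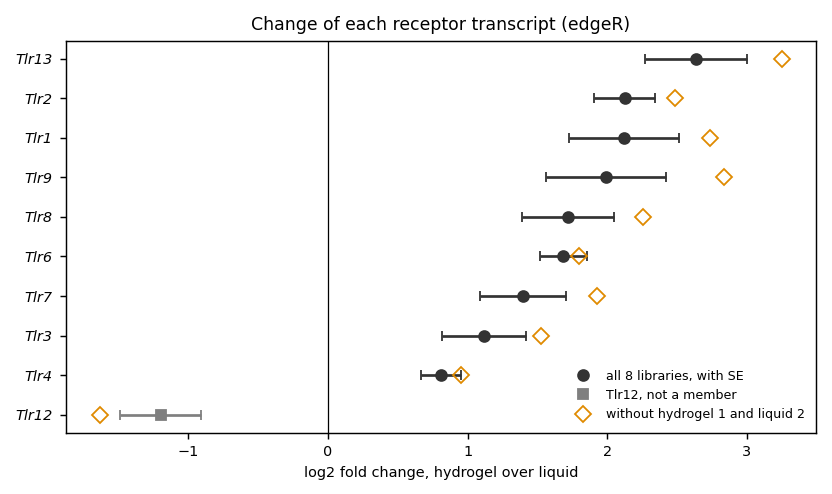
Log2 fold change, hydrogel over liquid, of the 9 tested members and Tlr12 (edgeR), circles for the members and a grey square for Tlr12, with whiskers of 1 SE; orange diamonds give the change without hydrogel 1 and liquid 2. The members lie between 0.81 and 2.63, Tlr12 lies at −1.20, and each diamond is farther from 0 than its circle or square. The libraries left out stood nearest the other culture for most of these genes, so their removal widens the gap by itself.

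With hydrogel 1 and liquid 2, the libraries of middle macrophage marker level, left out together, all 9 members were called and their changes were larger. These libraries stood nearest the other culture for most members, so leaving them out widens the gap by itself. Of all tested genes, 40.6% were called in that set, against 29.3% with all libraries. Tlr13 then stood at 3.25, Tlr9 at 2.84 and Tlr1 at 2.73 on the log2 scale, the 3 whose fold moved by over 1.5 times. Tlr6 was at 1.80, against 1.69 with all libraries, and Tlr4 at 0.95, against 0.81. Tlr5 passed the low-count filter in that set and was called, giving 10 members. It passed only through the remaining hydrogel libraries, where it is high, so the direction of its call was fixed by the filter.

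Levels can be compared between genes per kilobase of annotated exon (GENCODE M21 gene models). In hydrogel Tlr13 came first with 19.8 ± 6.35 CPM per kilobase (SD, n = 4), followed by Tlr2 (12.8), Tlr7 (9.40), Tlr4 (5.66), Tlr8 (5.39), Tlr9 (4.55), Tlr1 (2.75), Tlr6 (2.10), Tlr3 (0.396) and Tlr5 (0.129). In liquid the order began with Tlr7 at 3.57 ± 1.56 CPM per kilobase, followed by Tlr4 (3.23), Tlr13 (3.21), Tlr2 (2.95), Tlr8 (1.64), Tlr9 (1.16), Tlr6 (0.652), Tlr1 (0.634), Tlr3 (0.182) and Tlr5 (0.0145). In both cultures the mean ± SD ranges of neighbours in the order overlapped down to Tlr3. By these ranges only Tlr3 and Tlr5, the last of each order, stood apart from the member above them. The ranges include shifts of whole libraries, which the members share. As percent of the family's sum in each hydrogel library, Tlr13 (28.7 to 32.9), Tlr2 (18.3 to 23.2), Tlr7 (13.4 to 16.3) and Tlr4 (8.38 to 11.7) did not overlap. In every hydrogel library they came in that order, whereas in liquid their shares overlapped.

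The make-up of the family differed between cultures. Of the summed CPM per kilobase of all members, Tlr13 made up 28.7%, 32.5%, 32.9% and 30.3% in hydrogel 1 to 4, against 15.1%, 21.6%, 15.4% and 19.2% in liquid 1 to 4. Tlr4 made up 11.7%, 8.46%, 8.62% and 8.38% in hydrogel 1 to 4, against 20.1%, 13.3%, 25.1% and 21.1% in liquid 1 to 4. In neither case did the groups overlap. Tlr7 averaged 14.8% ± 1.22 in hydrogel and 20.3% ± 1.77 in liquid, and Tlr3 0.640% ± 0.12 in hydrogel and 1.06% ± 0.086 in liquid (SD, n = 4 each), again without overlap. The shares of Tlr1, Tlr2, Tlr5, Tlr6, Tlr8 and Tlr9 overlapped. Shares within a library are bound to each other, and no test was made of the differences between members.

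**Figure D3:**
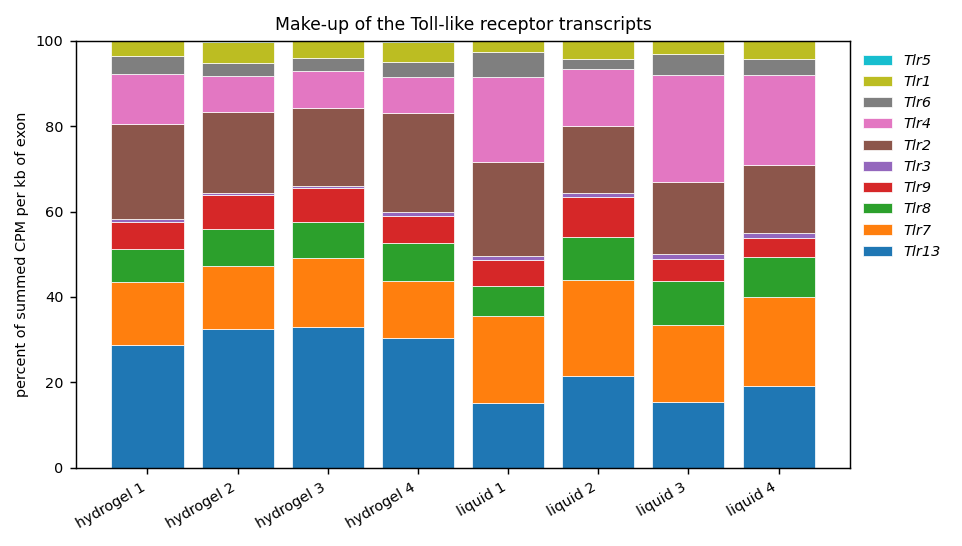
Percent of the summed CPM per kilobase of exon that each of the 10 members made up in each library, hydrogel 1 to 4 at left and liquid 1 to 4 at right. Tlr13 takes 28.7% to 32.9% in hydrogel and 15.1% to 21.6% in liquid, while Tlr4 takes 8.38% to 11.7% in hydrogel and 13.3% to 25.1% in liquid.

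Since macrophage markers were higher in hydrogel, each member was also expressed per 1000 CPM of the summed macrophage markers, as a description. On that scale Tlr13 stood at 11.7, 12.2, 12.9 and 11.5 in hydrogel 1 to 4, against 6.58, 9.82, 7.82 and 9.99 in liquid 1 to 4, so that the hydrogel libraries were still all higher; 0.773% of tested genes did the same. Tlr4 had 6.14, 4.11, 4.36 and 4.09 in hydrogel 1 to 4, against 11.3, 7.84, 16.5 and 14.2 in liquid 1 to 4, all lower in hydrogel, as were Tlr3 and Tlr7 and 89.1% of tested genes. The other 6 members overlapped between cultures. Tlr2, for example, spanned 4.99 to 6.32 in hydrogel and 4.99 to 6.66 in liquid, and Tlr9 spanned 1.94 to 2.48 in hydrogel, against 1.88 to 3.39 in liquid. Lyz2 was the largest part of the marker sum, with 2175 of 4093 CPM in hydrogel 1 and 828.2 of 1249 CPM in liquid 1. The markers rose by unlike amounts, Lyz2 by 2.00 and Mpeg1 by 2.78 on the log2 scale, against 2.63 for Tlr13. The place of Tlr13 on this scale therefore depends on which markers weigh most in the sum.

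**Figure D4:**
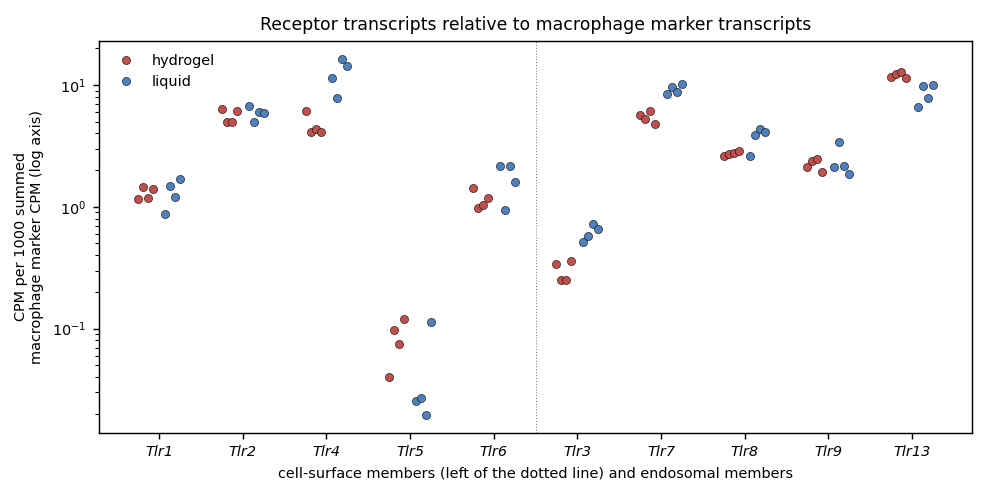
Each member's CPM per 1000 CPM of the summed 21 macrophage markers, on a log axis, 1 point a library, hydrogel left of liquid. Tlr13 is higher in every hydrogel library (11.5 to 12.9) than in any liquid library (6.58 to 9.99), Tlr3, Tlr4 and Tlr7 are lower, and the other 6 overlap. Lyz2 is the largest part of the sum, and the positions depend on that weighting.

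Markers of other marrow cells were read in the same way, and their part in the receptors' values was not tested. Their counts are to be read beside the shares over all tested genes, 15.1% higher and 14.1% lower. Plasmacytoid dendritic cells are known for TLR7 and TLR9, and of 10 markers of theirs 8 were tested, with 1 higher (Il3ra, also found on other cells) and 2 lower (4 by DESeq2). The defining ones, Siglech and Ccr9, had 29 and 13 reads over the hydrogel libraries against 399 and 389 over the liquid libraries. Their summed level overlapped, at 37.5 to 52.0 CPM in hydrogel and 32.9 to 63.1 CPM in liquid. Conventional dendritic markers had 3 of 5 tested lower and 0 higher (19.4 to 23.4 CPM in hydrogel, against 29.7 to 53.9 CPM in liquid). Neutrophil markers had 2 of 8 tested higher, Mmp8 and Csf3r, and 2 lower (3 by DESeq2, 1 by limma-voom), Ltf and Mmp9. Their summed level was 206.3 to 474 CPM in hydrogel, against 166.8 to 748.9 CPM in liquid. Mast cell and basophil markers had 6 of 8 tested lower (2 by limma-voom) and 0 higher (84.3 to 204.3 CPM in hydrogel, against 143.9 to 604.2 CPM in liquid). The counts of 0 higher held at an unadjusted p under 0.05 in edgeR and by DESeq2 and limma-voom. Among B cell markers Ms4a1 and Pax5 had 0 reads in hydrogel, and of those tested Blnk was higher and Cd79b lower. T and natural killer cell markers had 1 of 2 tested higher, Cd4, while Nkg7 was not called (6.82 to 20.9 CPM in hydrogel, against 3.67 to 10.3 CPM in liquid). Over the hydrogel libraries Cd3d and Ncr1 had 0 reads, Cd3e had 5 and Nkg7 had 437.

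Genes of the pathway around the receptors were read by role. Of 82 listed genes, 75 could be tested, 39 were higher and 7 lower, with a median log2 change of 0.35. Of all tested genes, 15.1% were higher and 14.1% lower, and the counts of each list below are to be read beside those shares. Calls were most of the endosomal genes, most co-receptors and all tested adaptors, whereas 11 of 18 kinases and ligases did not pass. Where a list below has 0 genes lower, none was lower by DESeq2 or limma-voom either, and at an unadjusted p under 0.05 in edgeR 1 gene of the kinases and ligases, Ube2n, was.

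Of 6 co-receptors and ligand carriers, 4 rose and 0 fell (median log2 change 1.08). Cd14, which passes lipopolysaccharide to TLR4, averaged 23.1 ± 7.83 CPM in hydrogel and 6.21 ± 3.17 CPM in liquid (SD, n = 4 each; log2 change 1.90 ± 0.36, adjusted p = 0.00363, edgeR). Ly96, the MD-2 subunit that binds lipopolysaccharide on TLR4, averaged 2.99 ± 1.10 CPM in hydrogel and 1.07 ± 0.391 CPM in liquid, a log2 change of 1.498 ± 0.34. Cd180, a TLR4-like receptor without a TIR domain, averaged 136.6 ± 28.5 CPM in hydrogel and 80.0 ± 9.93 CPM in liquid. The TLR2 co-receptor gene Cd36 rose by 1.21 ± 0.36 on the log2 scale (adjusted p = 0.0299, edgeR), a call lost in 6 of 17 alternatives.

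Of 12 tested chaperones and endosomal processing genes, 9 rose and 0 fell (median 1.79). Unc93b1, which carries the nucleic acid receptors to endosomes, averaged 162.6 ± 50.5 CPM in hydrogel and 44.6 ± 22.4 CPM in liquid (log2 change 1.87 ± 0.34, adjusted p = 0.00288, edgeR). Lgmn, Ctsb and Ctss, proteases of the compartment in which these receptors are cleaved, had log2 changes of 2.84 ± 0.40, 2.28 ± 0.33 and 2.63 ± 0.37. Pld3, an exonuclease that trims the nucleic acid ligands of TLR9, rose by 1.66 ± 0.20. Cnpy3, a chaperone for folding of most family members, rose by 0.31 ± 0.09 (adjusted p = 0.0231, edgeR), with the call lost in 4 alternatives. The proteases are lysosomal genes that macrophages express abundantly, and the part of the macrophage transcripts in the counts of this list was not tested.

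All 5 tested adaptor genes rose (median 0.84). Myd88 averaged 141.5 ± 3.61 CPM in hydrogel and 116.2 ± 1.35 CPM in liquid, a log2 change of 0.28 ± 0.05 (adjusted p = 0.00322, edgeR). All hydrogel libraries lay above the liquid ones. Tirap, which bridges MyD88 to TLR2 and TLR4, rose by 0.84 ± 0.15, Ticam2, which bridges TRIF to TLR4, by 1.40 ± 0.28, and Pik3ap1, an adaptor to phosphoinositide 3-kinase, by 2.17 ± 0.33. Ticam1, the TRIF gene, averaged 50.8 ± 3.72 CPM in hydrogel and 41.6 ± 4.43 CPM in liquid (log2 change 0.29 ± 0.09, adjusted p = 0.0366, edgeR), and its call was lost in 7 of 17 alternatives.

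Of 18 kinases and ubiquitin ligases, 7 rose and 0 fell (median 0.07). Irak2, a kinase of the MyD88 complex, rose by 0.93 ± 0.13, Map3k8, which links NF-kB signalling to ERK, by 1.62 ± 0.36, Peli2, a ligase of IRAK proteins, by 1.44 ± 0.34, and Tbk1, which phosphorylates IRF3, by 0.42 ± 0.07 on the log2 scale (adjusted p of 0.000933 to 0.0118, edgeR). Of 6 transcription factors, 3 rose and 0 fell (median 0.19). Irf5, which acts downstream of MyD88 in myeloid cells, averaged 49.1 ± 16.4 CPM in hydrogel and 12.4 ± 7.16 CPM in liquid (log2 change 2.00 ± 0.37, adjusted p = 0.00353, edgeR). Rel (1.18 ± 0.35) and Nfkb1 (0.37 ± 0.10), both NF-kB subunits, rose with calls lost in 6 and 3 alternatives. Irf7, a factor of interferon induction, averaged 8.87 ± 1.75 CPM in hydrogel and 8.77 ± 1.93 CPM in liquid (adjusted p = 0.964, edgeR).

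Negative regulators went both ways, with 3 of 12 higher and 3 lower (median 0.15). Atf3, a repressor of inflammatory genes, rose by 2.11 ± 0.28, and the A20-binding proteins Tnip1 and Tnip3 by 0.59 ± 0.10 and 1.71 ± 0.29 on the log2 scale (adjusted p of 0.000749 to 0.00205, edgeR). Tollip, which restrains IRAK1, fell to 276.4 ± 13.9 CPM in hydrogel, against 391.1 ± 39.6 CPM in liquid. Sigirr, an inhibitory TIR-domain receptor (−0.53 ± 0.11), and Socs1, an inhibitor of cytokine signalling (−0.68 ± 0.19), also fell, the call of Socs1 being lost in 3 alternatives; both were named after their values were seen. Irak3, the myeloid IRAK inhibitor, averaged 85.4 ± 5.92 CPM in hydrogel and 78.0 ± 7.10 CPM in liquid and did not pass (adjusted p = 0.259, edgeR).

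Endogenous ligands had 3 of 6 tested higher and 1 lower (median 0.00). Saa3 and Vcan, reported in mice as agonists of TLR4 and TLR2, rose by 6.87 ± 0.40 and 3.29 ± 0.29, and Hspd1 by 0.35 ± 0.09, while Hmgb1 fell by 0.35 ± 0.10 on the log2 scale (adjusted p = 0.0309, edgeR), a call lost in 8 of 17 alternatives. Of 10 tested response genes, 5 rose and 3 fell (median 0.61). Tnf, the gene of tumour necrosis factor, averaged 8.35 ± 2.04 CPM in hydrogel and 1.97 ± 0.628 CPM in liquid (log2 change 2.08 ± 0.26, adjusted p = 0.000591, edgeR). Il1b rose by 0.79 ± 0.10, the prostaglandin synthase gene Ptgs2 by 1.89 ± 0.29 and the chemokine gene Ccl4 by 2.16 ± 0.40. The 3 that fell, named after their values were seen, were Il6 (−1.66 ± 0.50) and the chemokine genes Ccl5 (−2.19 ± 0.55) and Cxcl10 (−1.31 ± 0.35), the last a target of interferon. All 3 averaged under 2 CPM in both cultures, and Il6 lost its call in 4 of 17 alternatives and Cxcl10 in 2. Without hydrogel 1 and liquid 2, the fold of 10 named pathway genes grew by over 1.5 times: the log2 change was then 2.54 for Cd14, 1.83 for Cd36, 3.26 for Ctss, 3.54 for Lgmn, 2.50 for Unc93b1, 2.76 for Pik3ap1, 2.22 for Map3k8, 2.04 for Peli2, 2.71 for Irf5 and 1.82 for Rel. In that set 40.6% of all tested genes were called, against 29.3% with all libraries.

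**Figure D5:**
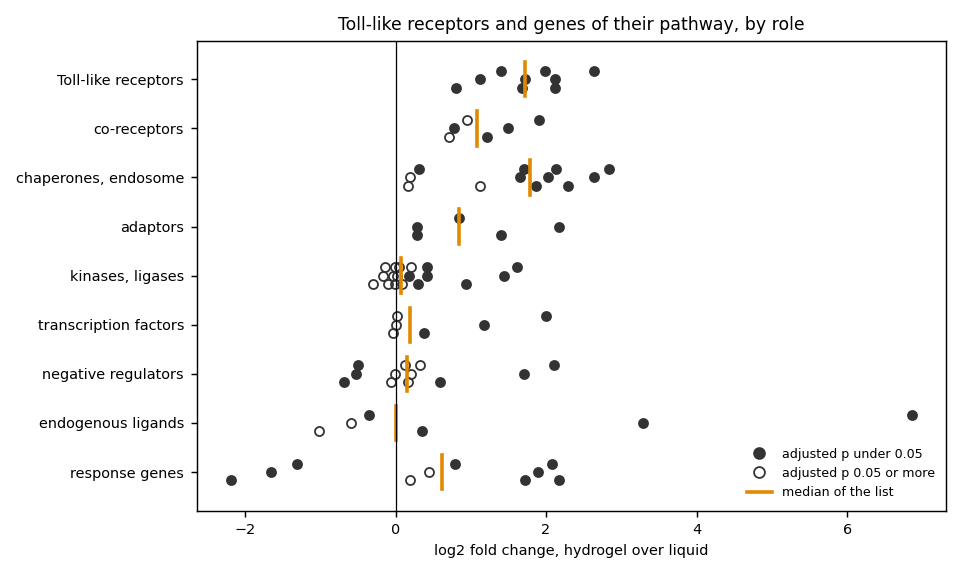
Log2 fold change, hydrogel over liquid, of each tested gene, grouped by role; filled points passed edgeR's test at an adjusted p of 0.05, open points did not, and orange bars are medians. The receptors (median 1.72) and endosomal genes (1.79) lie to the right, the kinases and ligases centre on 0.07, and response genes run from −2.19 to 2.16.

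Genes most like each member over the 8 libraries were sought among 10902 tested genes (10903 for Tlr3) with a symbol and a mean of at least 2 CPM. The 3 closest to each member correlated at 0.985 to 0.998. They began with Sgpl1, March1 and Crybg1 for Tlr13 (Pearson correlation of log2 CPM 0.998 each), Clec4d for Tlr6 (0.998), Apobr for Tlr9 (0.997), Slc37a2 for Tlr8 (0.997), Fcgr4 for Tlr1 (0.997), Klf10 for Tlr2 (0.997), Kcnj2 for Tlr7 (0.996), Flrt2 for Tlr4 (0.991) and Cfp for Tlr3 (0.989). With each culture's mean removed, these values were 0.996 for March1 and Tlr13 and 0.963 for Clec4d and Tlr6. The points share their libraries and the contrast of cultures, and each member correlated above 0.9 with 823 to 1212 genes.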

How the data were processed

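PolyA RNA of 8 cultures, 4 in hydrogel and 4 in liquid, was sequenced from libraries of a stranded kit. The authors deposited 1 table of raw counts per gene, whole numbers without normalization. The submitters' processing notes name bcl2fastq, STAR 2.7.10b, HTSeq 0.13.5 and the mouse build GRCm39. The annotation release, strand and multi-mapping settings of the counting were not stated there. Each column was assigned by its sample label. Of the lines, 2 without a gene were dropped, and 0 sample columns stayed unused. A table of gene names gave symbols to 26534 of 27679 identifiers. Exon lengths and overlaps came from GENCODE M21 (GRCm38); no coordinate was converted.

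Genes passing filterByExpr by culture (13845) were scaled by TMM and tested with edgeR 4.0.16 in R 4.3.3, by the quasi-likelihood test. The model held culture alone, and p-values were adjusted over all tested genes (Benjamini-Hochberg, 0.05). The procedure was tested on simulated data first. Each SE was obtained as the absolute log2 change over the root of the F statistic. Likeness used log2 CPM with a prior count of 2. P-values measure the spread between these cultures.

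The members, role lists and marker lists were chosen with earlier results of these data known. The text names every member, Tlr11, Tlr12, the called genes of lowest adjusted p in each role list (at most 4) and 11 further genes regardless of outcome; others are marked as chosen after their values were seen. Tasl and Ifnb1 were not analysed here. One B cell marker is not reported here. The alternatives were DESeq2's size factors (DESeq2 1.42.0), upper-quartile scaling, unscaled library totals, all genes unfiltered, a minimum of 1 CPM in 4 libraries, the DESeq2 test, limma-voom (limma 3.58.1), a threshold of 0.01, a replicate block, and leaving out each library in turn or hydrogel 1 with liquid 2. Figures used matplotlib 3.10.9.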

Additional observations from a re-analysis of the deposited data

Results flagged for a closer look

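Over 48 genes named above, each culture's 4 libraries were searched for 1 that stood apart from the other 3, its gap to the nearest divided by the whole range exceeding Dixon's critical value for 4 samples, which chance does in about 1 of 20 groups; 6 of 96 groups exceeded it. Tlr1 in hydrogel did so through hydrogel 1, at 4.74 CPM against 10.3 to 11.1 CPM (0.865). Tlr9 in liquid did so through liquid 2, at 8.32 CPM against 2.44 to 2.66 CPM (0.962). Liquid 2 also stood apart for the receptor chaperone Unc93b1, at 77.8 CPM against 28.4 to 36.1 CPM (0.845), and for Irf5, at 23.1 CPM against 7.92 to 9.49 CPM (0.896). Tollip stood at 297 CPM in hydrogel 1 and at 268 to 271.7 CPM in the other hydrogel libraries (0.872). Tnip1 was highest in liquid 3, at 57.0 CPM against 47.4 to 48.0 CPM (0.936). Hydrogel 1 and liquid 2 account for 2 and 3 of the 6; their macrophage marker sums are given above, and the part of these in the values was not tested.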

How the results depend on the processing

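The number of members called higher was 9 under each other scaling, the stricter CPM filter, the DESeq2 test and limma-voom, 10 without the low-count filter, where Tlr5 was tested and called, 8 at an adjusted p under 0.01 and 8 to 10 with 1 library left out; 0 members were lower under any of these. With libraries left out, Tlr5 passed the low-count filter only through hydrogel libraries, so its direction in those counts of 10 was fixed by the filter. Pathway genes called higher numbered 29 to 45. Those called lower, 7 as reported, were 2 at an adjusted p under 0.01 and 4 to 8 with 1 library left out, 4 of them without hydrogel 3. Over 46 single genes and 17 alternatives, 737 of 782 values kept direction and call, 40 lost the call, 1 gained it (Irak3 by library totals alone) and 4 turned sign, all of Irf7, which was never called: −0.0397 with upper-quartile scaling, −0.00068 with limma-voom, −0.11 without hydrogel 3 and −0.13 without liquid 1, in a range of −0.13 to 0.11 with 1 library left out. Upper-quartile scaling made 41.3% of all calls higher and library totals alone 60.1%, against 51.7% with TMM; these scalings shifted the median gene by −0.053 and 0.063 on the log2 scale. With the replicate number as a block, 9 members, 40 pathway genes higher and 8 lower were called. Libraries with the same number did not deviate together in every pair (correlations of −0.134 to 0.33). Hydrogel 1 and liquid 2, of unlike number, deviated most strongly against each other (−0.546), so this check cannot settle whether the cultures were paired. The numbers were used as names only in the main model. Depth limits Tlr5 and Tlr11, with 10 and 5 reads in the culture where each was lower.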

Other observations

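With both cultures pooled, the members moved together between libraries around their culture means, Tlr6 least. In liquid alone Tlr6 did not follow this pattern. It was highest in liquid 1, at 2.696 CPM, where Tlr1, Tlr3, Tlr4, Tlr8 and Tlr13 were lowest and Tlr2, Tlr7 and Tlr9 were not. With each culture's mean removed, the Pearson correlation of log2 CPM over the 8 libraries was 0.526 to 0.985 (median 0.871) for the 28 pairs of tested members without Tlr6, and 0.271 to 0.608 (median 0.359) for the 8 pairs with it. Tlr6 varied by 7.7% of its mean in liquid (SD over mean, n = 4), where Tlr1 varied by 55.0% and Tlr9 by 71.4%. The libraries share depth and cell make-up across all pairs, so these are descriptions.

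By location, the endosomal members made up 58.3%, 64.4%, 66.1% and 59.8% of the family's summed CPM per kilobase in hydrogel 1 to 4, against 49.7%, 64.3%, 50.2% and 54.9% in liquid 1 to 4. The cultures overlapped through liquid 2, which lay within the hydrogel range.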
